A study of Cannabis sativa with 6 samples.

Results

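The steady genes of feral hemp flowers are 98 of the 29777 genes counted in this series: genes with many reads in every library and nearly the same level in all of them. They were chosen by their measured values, as genes with a CPM (a gene's read count scaled to the library's sum of gene counts) of at least 100 in each of the 6 libraries and a highest CPM at most 1.5 times the lowest. Because every library entered that choice, closeness between the libraries is a property of the list and no finding, and values across the 6 libraries are given below as a description. Hemp (Cannabis sativa) is dioecious, with separate female and male plants. RNA came from flowers of 3 female and 3 male libraries, with 1 library of each sex from each of 3 Nebraska locations, labelled Knox, Madison and Merick. All plants were grown in pots under a photoperiod of 16 h for 10 weeks and then 11 h to bring on flowering, and no treatment is listed. The labels give no strain, plant age or flower stage, and leave unsaid if plants were pooled for a library. Any p-value below therefore measures only the spread between these libraries, which may be partly technical.

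Genes of this kind matter because transcript levels measured by quantitative PCR are read relative to reference genes that should not differ between the samples compared. In plants such genes often serve functions that every cell needs, such as the cytoskeleton, translation or protein turnover. Female and male hemp flowers hold different organs, pistils and stamens, and females carry a pair of X chromosomes while males carry an X and a Y. In whole flowers, fewer cells of a type and less RNA per cell cannot be told apart. The files and the RefSeq table used here give no description of any steady gene, so none has a stated role and none is assigned here. Genes are named by their LOC symbols. A CPM is not scaled by transcript length, so CPM values are compared between libraries within a gene and not between genes.

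Gene counts per library ranged from 26945432 to 38672535 in females and from 40334171 to 46045338 in males. At least 100 CPM was reached by 1744 to 1892 genes in a female library and by 1993 to 2266 in a male library. Only 769 genes reached it in all 6, and the 98 steady genes are 98 of those 769. Together they held between 1.92% of gene counts (Merick female) and 2.05% (Knox female). The other 671 genes with at least 100 CPM in every library are called the other abundant genes. The Merick male weighs on the sex comparison: edgeR called 3339 of all genes with it and 8311 without it. Calls, the length of the list and the shares carried between the sexes are therefore also given without it. Counts of genes whose sexes do not overlap were not redone without it.

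**Figure D1:**
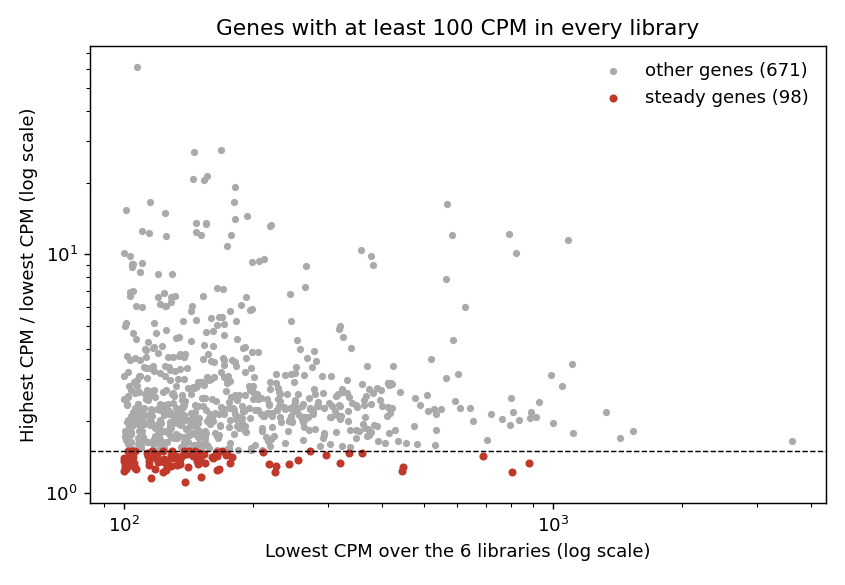
Each point is 1 of 769 genes with at least 100 CPM in every library, placed by its lowest CPM (horizontal, log scale) and by its highest CPM divided by its lowest (vertical, log scale). The 98 steady genes lie below the dashed limit of 1.5, while the other 671 reach a ratio of 61.3.

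Ratios of the steady genes ran from 1.10 to 1.499 with a median of 1.39, against a median of 2.28 in the other abundant genes. A ratio of at most 1.3 was found for 24 genes and of at most 1.4 for 52, so the list is crowded toward its limit. The coefficient of variation (SD divided by mean) over 6 libraries was 3.99% to 17.98% in the steady genes. Counts behind each value were high: the lowest was 2879 reads. Counting error alone gives a coefficient of variation of 0.52% to 1.56% for these genes, so libraries differed by 2.94 to 24.8 times the counting error. Spread between libraries also holds differences between plants and between library preparations, which cannot be told apart here.

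LOC115714236 had the smallest ratio, 1.10. It stood at 149, 152 and 147 CPM in the Knox, Madison and Merick females and at 139, 153 and 141 CPM in the males of the same order. Both Madison libraries were highest, and the sexes overlapped. LOC115698276 followed with a ratio of 1.15, at 134, 119.9 and 123 CPM in females and 132, 116 and 129 CPM in males. The female mean of 126 ± 7.06 CPM and the male mean of 125 ± 8.33 CPM (SD, n = 3) differed by less than either SD, and here both Madison libraries were the lowest. LOC115706193 came next at a ratio of 1.16 and stood at 175, 167 and 175 CPM in females and 168, 151 and 162 CPM in males.

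The next 7 genes had ratios of 1.22 to 1.245. LOC115698665 had 973, 803 and 978 CPM in females and 863, 911 and 821 CPM in males, with the sexes overlapping. LOC115714140 was lowest in the Madison female (124 CPM) and highest in the Merick male (151 CPM). LOC115705392 stood at 529, 537 and 444 CPM in females and at 529, 549.995 and 536 CPM in males. Its males were the tighter sex, with a coefficient of variation of 2.00% against 10.2% in females, where the Merick library lay low. LOC115714201 was lowest in the Merick female (165 CPM) and highest in the Knox female (205 CPM). LOC115709457 was lowest in the Merick male (125 CPM) and highest in the Knox male (156 CPM). LOC115703087 and LOC115719306, the remaining pair, were lower in every male than in every female and are described with the genes whose sexes do not overlap.

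**Figure D2:**
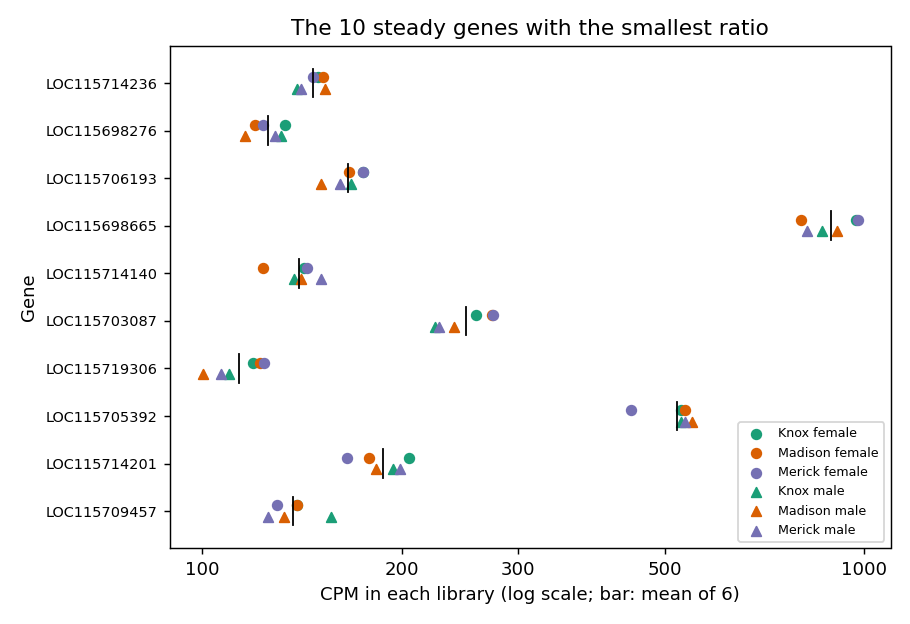
CPM in each library (horizontal, log scale) for the 10 steady genes with the smallest highest-to-lowest ratio; circles are female and triangles male libraries, colours are locations, and bars mark the mean of 6 libraries. The spread within a gene is narrow, from 139 to 153 CPM for LOC115714236, and for LOC115703087 and LOC115719306 all triangles lie left of all circles.

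The 6 steady genes with the most reads were LOC115711364, LOC115698665, LOC115705254, LOC115705392, LOC115701425 and LOC115719200. LOC115711364, on X in the Pink pepper assembly, stood at 1149, 974 and 930.4 CPM in females and 893, 879.7 and 1173 CPM in males. It was high in the Knox female and the Merick male and low in the other males. LOC115705254 had 688, 718 and 766 CPM in females and 772, 977 and 752 CPM in males, so the Madison male stood above the other 5 libraries. LOC115701425 lay between 448 CPM in the Merick male and 573 CPM in the Knox female. LOC115719200 had 522, 441 and 461 CPM in females and 373, 359.5 and 529 CPM in males, with the Merick male highest of all and the other males lowest. Its male mean was 421 ± 94.6 CPM against 475 ± 42.0 CPM in females (SD, n = 3), a difference within the spread of the males.

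Near the limits the choice is fine. LOC115709329 (ratio 1.4988) and LOC115712239 (1.4994) were the last inside the ratio limit, and LOC115702813 (1.5049) and LOC115724960 (1.5069) the first outside it. For the level limit, LOC115719306 (lowest value 100.1 CPM) and LOC115712808 (100.2 CPM) were just inside, and LOC115714405 (99.9 CPM) and LOC115713009 (99.4 CPM) just outside. The Merick female was the lowest library in 3 of these last 4 genes.

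Between the sexes, edgeR's quasi-likelihood test over all 19276 tested genes (adjusted p under 0.05) called 0 of the 98 steady genes higher in male and 0 higher in female flowers, where 12.6% and 4.75% of all tested genes were called. None had an unadjusted p under 0.05 either, where 6958 of all 19276 tested genes did. All 98 passed the filter on low counts. Because the rule used these same values, nothing is read from that count. The fitted log2 fold changes (male minus female) ran from -0.36 to 0.48 with a median of 0.09, against 0.094 in the other abundant genes and 0.00025 over all tested genes. Upper-quartile scaling turned the steady genes' median to -0.10. edgeR shares the estimate of spread between genes. Its gene-wise biological coefficient of variation for the steady genes was 28.6% to 34.9%, above the 3.99% to 17.98% measured over the 6 libraries. The quasi-likelihood test does not work with these gene-wise values, so they are not the spread behind the calls. DESeq2 called 1 steady gene, LOC115701081, higher in male (log2 fold change 0.49, adjusted p = 0.047 by DESeq2), and limma-voom called 0. Over all genes DESeq2 called 3917 of 19065 higher in male and 2520 higher in female. For limma-voom these were 1529 and 905 of 19276.

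Small leanings by sex remained inside the list. Every male lay above every female for 8 steady genes and below for 7, together 15.3% of the list. Over all tested genes the shares were 24% above and 19.1% below, and in the other abundant genes 203 and 113 of 671. A ceiling of 1.5 on the ratio holds such separations to small sizes. Leaving out a male can only add such genes, and the counts were not redone without the Merick male. The 15 genes were singled out after their values were seen, and which way the sexes separate depends on scaling. With TMM scaling (trimmed mean of M-values), every male lay above for 8 of the 98 genes and below for 3. These counts were 8 and 4 with RLE scaling (relative log expression), and 3 and 18 with upper-quartile scaling. The shares over all tested genes were taken on plain CPM only. Under upper-quartile scaling, edgeR's median log2 fold change was -0.18 across all tested genes and -0.10 in the steady genes. The counts of 3 and 18 therefore cannot be read as particular to the steady genes.

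LOC115701081 had the largest male lean. It stood at 174, 189.5 and 173 CPM in females and at 231, 238 and 249 CPM in males, a male mean 1.34 times the female mean. Each sex was tight, with coefficients of variation of 5.20% and 3.75%, and the gap between them was wider than either. edgeR gave a log2 fold change of 0.48 (SE 0.22, adjusted p = 0.17). LOC115712913 stood at 150.2, 145 and 139 CPM in females and at 207, 199 and 150.5 CPM in males, so its Merick male lay beside the Knox female. Without the Merick male, edgeR called LOC115712913 (log2 fold change 0.61, adjusted p = 0.030) and LOC115718988 (0.52, adjusted p = 0.044) higher in male, and no other steady gene. Of all 19812 genes tested in that fit, 4592 were called higher in male and 3719 higher in female. LOC115718988 had 133, 135 and 119 CPM in females and 173, 166 and 121 CPM in males, so both Merick libraries were its lowest.

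The other 6 genes with every male above were LOC115698735, LOC115695701, LOC115712841, LOC115719470, LOC115707120 and LOC115711722. LOC115698735 stood at 108, 113 and 103 CPM in females and 126, 139.9 and 130.2 CPM in males. LOC115695701 stood at 183, 204 and 177 CPM in females and 236, 209.7 and 220.3 CPM in males, with the Madison libraries of both sexes near each other. For these 6 genes the male mean was 1.17 to 1.22 times the female mean.

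LOC115722194 had the largest female lean, at 302, 313 and 291 CPM in females and 231, 232 and 211 CPM in males. Its means were 302 ± 10.8 CPM in females and 225 ± 12.05 CPM in males (SD, n = 3), a male mean 0.74 times the female mean, with edgeR's log2 fold change at -0.36 (SE 0.24, adjusted p = 0.32). LOC115703087, on X, had 259, 274 and 275 CPM in females and 225, 239.7 and 228 CPM in males, a factor of 0.86. LOC115720516, also on X, stood at 163, 162 and 151 CPM in females and 130.3, 126 and 132 CPM in males, a factor of 0.81. In LOC115719306 the females spanned only 119 to 124 CPM and the males 100.1 to 109.7 CPM. The remaining genes with every male below were LOC115709114, LOC115712641 and LOC115713486, with factors of 0.79 to 0.87.

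**Figure D3:**
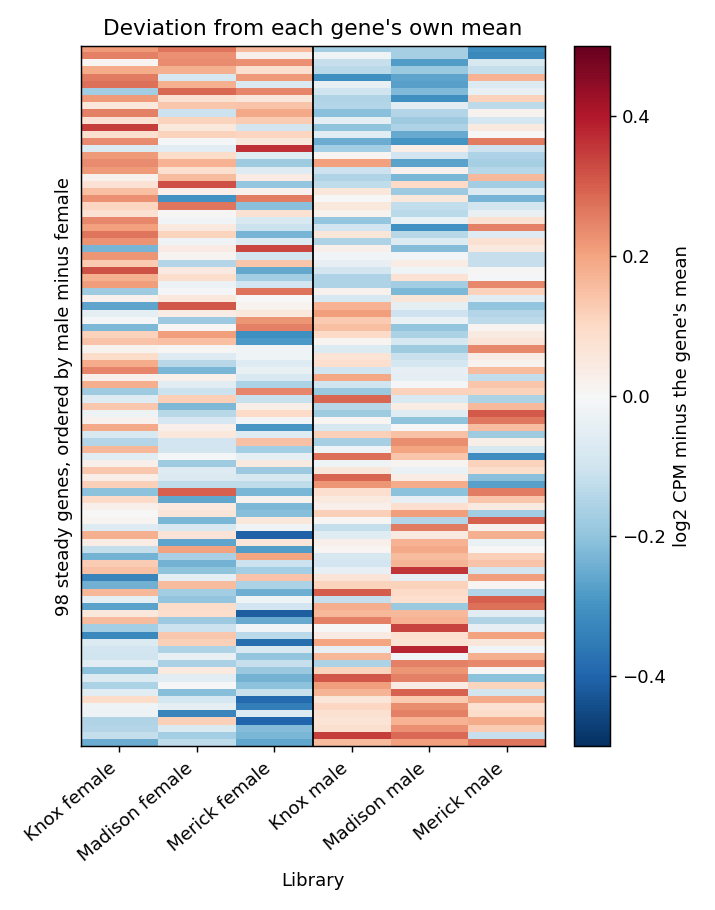
Deviation of log2 CPM from each gene's own mean (colour, red higher and blue lower) for the 98 steady genes (rows, ordered by male minus female) in 6 libraries (columns, females left of the line). Genes at the top lean female and genes at the bottom lean male; the Merick female was the lowest library for 29 genes and the Knox female the highest for 24.

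On plain CPM the steady genes showed no common direction between the sexes across locations. The median log2 difference between the male and the female of a location was -0.046 for Knox and -0.016 for Madison. For Merick it was 0.079. The other abundant genes had the same signs and larger medians, -0.097 and -0.19 for Knox and Madison and 0.30 for Merick. These signs depend on scaling: with TMM the steady genes' medians were 0.105 for Knox, 0.21 for Madison and -0.13 for Merick, each turned, and with upper-quartile scaling all 3 were below 0. On plain CPM, males were higher at all 3 locations for 18 genes, lower at all 3 for 14, and of mixed sign for 66. The edgeR F-test of location with sex as a covariate called 0 of the 98 genes, and 0% of all tested genes. At an unadjusted p under 0.05 it had 0 steady genes and 1336 of all 19276. DESeq2's likelihood-ratio test called 0 steady genes, 682 of all 18902 it tested and 16 of the 671 other abundant genes. With 1 library per sex and location, 2 residual degrees of freedom remain, so likeness of the locations cannot be read from a count of 0.

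Both libraries of a location lay above, or both below, the other 4 libraries for 28 steady genes, 28.6% of the list. The share was 20.3% over all tested genes and 26.5% in the other abundant genes. How the locations shared these differed. In the steady genes Knox was above for 6 and below for 2, Madison above for 5 and below for 5, and Merick above for 6 and below for 9. In the other abundant genes Merick accounted for most, above for 118 and below for 43 of 671. Some genes counted for more than 1 location: in LOC115698276 and LOC115708815 both Knox libraries were highest and both Madison libraries lowest. LOC115708815 stood at 134 and 125 CPM in the Knox female and male, at 107 and 110.5 CPM in the Madison pair and at 112 and 119 CPM in the Merick pair. LOC115706239 stood at 147 and 126 CPM in Madison, 124 and 108 CPM in Knox, and 103 and 104 CPM in Merick, so the locations ranked Madison, Knox, Merick in each sex. Its female was above its male in Madison and Knox and slightly below it in Merick. LOC115722188 was highest in Merick, at 195 and 204 CPM, and between 141 and 185 CPM elsewhere.

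The variation of each gene's log2 CPM was divided into sex, location and the remainder, each per degree of freedom. In the steady genes the median mean squares were alike, at 0.0239 for sex, 0.0237 for location and 0.0263 for the remainder. In the other abundant genes they were 0.484, 0.142 and 0.0792. Sex was the largest of the 3 for 37 of 98 steady genes and for 458 of 671 other abundant genes. Location was largest for 29 and the remainder for 32 steady genes. A ceiling on the ratio limits all 3 parts, so their small size follows from the choice. The first principal component of the steady genes' deviations carried 32.7% of their variance. Its weights were 0.25, 0.18 and 0.57 for the Knox, Madison and Merick females. For the males in the same order they were -0.41, -0.64 and 0.06.

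Ratios between genes within a library, used to rank reference genes for quantitative PCR, do not depend on that library's size. The steady genes they are taken against were themselves selected on plain CPM, so this ranking restates the same values and is no separate support. For each steady gene the SD over 6 libraries of its log2 ratio to every other steady gene was averaged. These averages ran from 0.18 to 0.30 with a median of 0.24. LOC115698276 had the lowest (0.184), followed by LOC115714236 (0.186), LOC115714201 (0.189), LOC115705392 (0.190) and LOC115706193 (0.191). The 10 lowest by this measure and the 10 smallest CPM ratios shared 7 genes. Of the other abundant genes, 39 of 671 had an average at or below the highest steady gene, so membership near the limit is not set by this measure.

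Other scalings of the libraries moved which genes met the rule more than how many. With TMM 86 genes met the rule, of which 55 are among the 98. These are 56.1% of the steady genes and 63.95% of the TMM list. RLE gave 83 genes with 48 shared, and upper-quartile scaling gave 113 with 72 shared. In all 4 lists there were 37 genes, including 9 of the 10 with the smallest ratio. The exception was LOC115719306, whose lowest value fell below 100 CPM under each of the other scalings (95.4 to 98.4 CPM). TMM factors ran from 0.90 in the Madison male to 1.08 in the Merick male, while a factor taken from the steady genes' own medians was lowest in the Merick female (0.955) and highest in the Knox female (1.03).

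LOC115714201 had the smallest widest ratio over those 3 scalings, 1.1997 with TMM, 1.23 with RLE and 1.19 with upper quartile. LOC115710935 (widest 1.24) and LOC115698276 (1.27) followed. LOC115714236, the most even gene on plain CPM, reached 1.34 with RLE. LOC115705392 fell to 1.09 with upper-quartile scaling and reached 1.297 with RLE. Of the 6 genes with the most reads, LOC115705254 passed the limit with TMM (1.68) and RLE (1.72), and LOC115719200 with upper quartile (1.54). These last examples follow the rule for named genes, while LOC115710935 was picked after its values were seen.

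**Figure D4:**
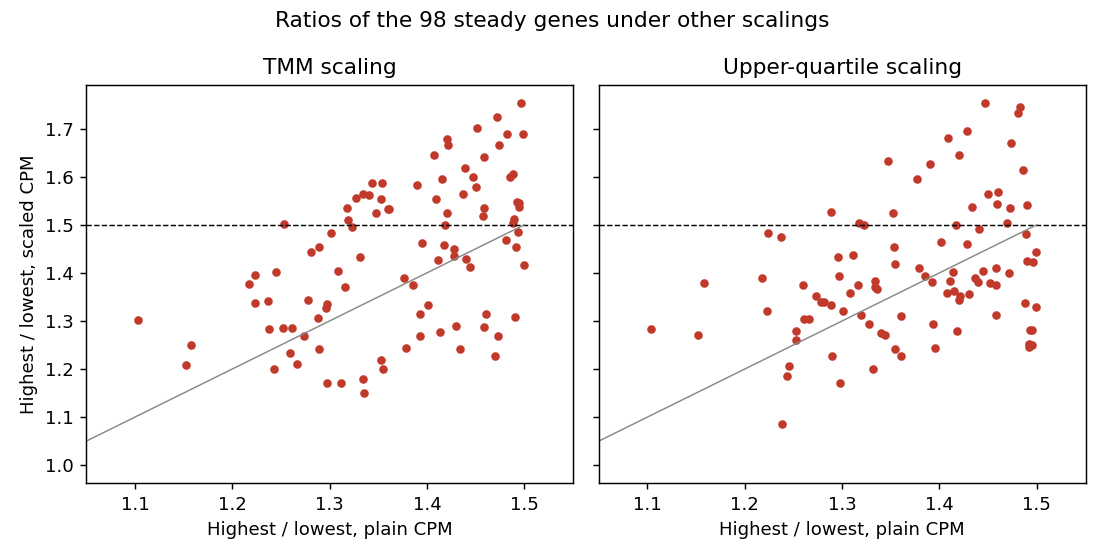
Highest-to-lowest ratio of the 98 steady genes on plain CPM (horizontal) against the same ratio after TMM scaling (left panel, vertical) or upper-quartile scaling (right panel, vertical); the dashed line is the limit of 1.5 and the grey line marks equal ratios. Points above the dashed line leave the list under that scaling.

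The range of values within a sex can be read against a choice made in the other sex alone, which the shared choice above does not allow. A comparison of means, here and in the reverse direction, still takes in the libraries that made the choice. Of 1360 genes with at least 100 CPM in every female, 849 stayed within 1.5-fold over the 3 females. Among these 849, the male mean was within 1.5-fold of the female mean for 426 (50.2%), against 135 of the 511 female-uneven genes (26.4%). Over the 3 males, 350 of the 849 (41.2%) and 90 of the 511 (17.6%) stayed within 1.5-fold. Both held for 199 (23.4%) and 43 (8.42%). The shares were higher in the female-even genes by each measure, of which only the range over the males is separate from the choice. The groups also differed in male level: 556 of the 849 (65.5%) and 213 of the 511 (41.7%) had at least 100 CPM in every male. Evenness and level were not separated in these shares. Most genes even among females were still not even over both sexes. These shares moved when the Merick male was left out. No other male was left out here, so its part cannot be told apart from reading fewer libraries. Over the other 2 males 794 of the 849 (93.5%) and 382 of the 511 (74.8%) stayed within 1.5-fold, where fewer libraries also make the limit easier to meet. The mean criterion then held for 337 (39.7%) and 97 (19.0%), and both for 327 (38.5%) and 85 (16.6%).

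Chosen the other way, 567 of 1247 genes with at least 100 CPM in every male stayed within 1.5-fold over males. The female mean was within 1.5-fold of the male mean for 279 of them (49.2%), against 249 of 680 male-uneven genes (36.6%). Over the 3 females, 437 (77.1%) and 373 (54.9%) stayed within 1.5-fold. At least 100 CPM in every female was reached by 356 (62.8%) and 413 (60.7%). Genes are not independent replicates and no test is given for these shares.

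The RefSeq gene table of the Pink pepper assembly held 97 of the 98 genes, all listed as protein coding, and did not hold LOC115714201. None has a common name there. No label or file names the build behind the counts, so no positions are printed and chromosomes are those of Pink pepper. Of 96 placed genes, 17 (17.7%) lie on chromosome 4, against 81 of 664 other abundant genes (12.2%) and 11.4% of all placed genes with a mean of at least 1 CPM. Chromosome 9 holds 5 steady genes (5.21%) against 10.1% of the other abundant genes and 8.76% of the wider set. No count enters these placements, but the list is short and no test of the shares was run.

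**Figure D5:**
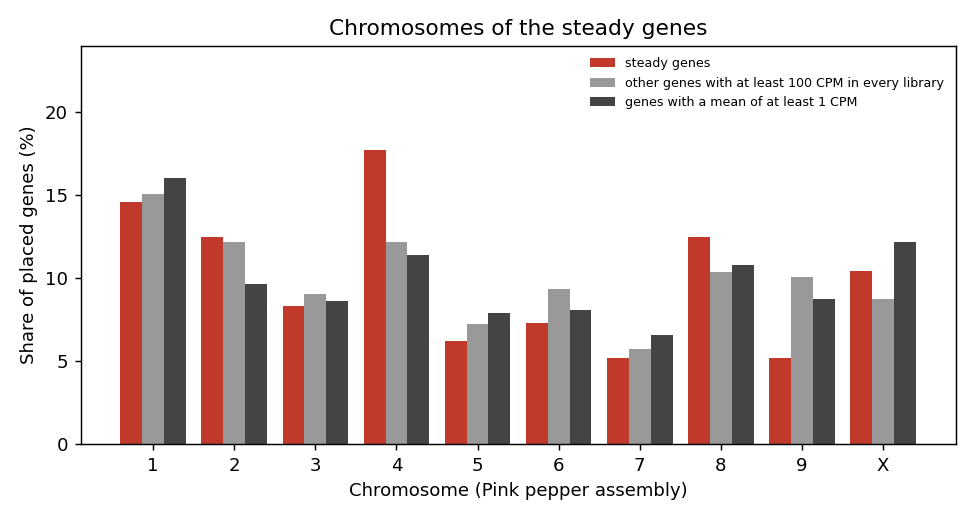
Share of placed genes on each chromosome of the Pink pepper assembly (vertical, percent) for the steady genes, the other genes with at least 100 CPM in every library, and all genes with a mean of at least 1 CPM. Chromosome 4 holds 17.7% of the steady genes and 12.2% of the other abundant genes.

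The X chromosome holds 10 steady genes (10.4% of those placed), between the 8.74% of the other abundant genes and the 12.2% of all placed genes with a mean of at least 1 CPM. Their male-to-female ratio of means ran from 0.81 to 1.17 with a median of 0.99, and 5 of 10 were above 1. The 86 autosomal steady genes had a median of 1.03. Among the X genes LOC115703087 and LOC115720516 had every male below every female, and LOC115711722 had every male above, at 121, 116 and 123 CPM in females and 126, 169 and 128 CPM in males. LOC115699557 stood at 134, 114 and 106 CPM in females and 111, 118 and 130.4 CPM in males, with overlapping sexes. LOC115698324 had 350.2, 273 and 335 CPM in females and 254, 266 and 298 CPM in males, also overlapping. Near equal levels in both sexes are what the choice of the list requires of these 10 genes.

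Steady genes were spread along the chromosomes. Among 86 successive pairs in gene order 1 pair was adjacent and 4 lay within 10 genes, with a median distance of 222 genes. Among all 769 abundant genes, which lie more densely, 31 of 750 successive pairs were adjacent. The adjacent pair on chromosome 4 was LOC115714236 and LOC115712781. LOC115712781 stood at 121, 128 and 164 CPM in females and 135, 159 and 155 CPM in males, so it varied with a ratio of 1.35 beside its more even neighbour. Without a stated strand setting, reads of neighbouring genes that overlap are uncertain.

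The steady genes' spans in the Pink pepper annotation, introns included, had a median of 3543 bases, against 3038 bases in the other abundant genes and 3406 bases in all genes with a mean of at least 1 CPM. A single RefSeq transcript was listed for 64 of the 97 genes (66.0%), against 78.9% of the other abundant genes and 69.0% of the wider set. LOC115709329 had the most transcripts, 10, and LOC115716778 the longest span, 45608 bases. CPM is not scaled by length, and the part of length in reaching 100 CPM was not tested.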

How the data were processed

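The authors deposited raw read counts per gene, 1 table per library, with 29777 gene rows. The 5 closing rows of each table, named as htseq-count names them, hold reads assigned to no gene (14.9% to 18.1% of listed reads) and were left out. For the aligner, genome build, annotation and strand setting, no label or file header names a choice (not given in the sources used here). CPM was computed from each library's sum of gene counts, without further scaling. The members, lists and tests were chosen with earlier results of these data known. Named genes were the 10 with the smallest ratio, the 6 with the highest mean CPM, and the 2 on each side of each limit; other names were chosen after values were seen. No steady gene was called by edgeR or has a common name, so those parts of the rule named none. Gene lists by product name, promoter motifs and protein features were planned and not run, since the reference table holds no descriptions or sequences.

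Sexes were compared with edgeR 4.0.16 in R 4.3.3 (TMM, filterByExpr, robust quasi-likelihood test, Benjamini-Hochberg over 19276 genes, threshold 0.05), all 6 libraries and no covariate; location was tested with sex as covariate. DESeq2 1.42.0 and limma-voom (limma 3.58.1) were alternatives. Levels were summarised with Python 3.11.15. The scripts were tested on simulated data. No molecular identifiers are mentioned per the labels' protocols, so Poisson error covers read counting only. No 2 libraries held identical counts.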

Additional observations from a re-analysis of the deposited data

Results flagged for a closer look

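The median difference between the male and the female of a location had opposite signs between locations in the steady genes on plain CPM. On log2 CPM, male minus female, it was -0.046 for Knox and -0.016 for Madison, and 0.079 for Merick. The SD of the library medians within a sex was 0.039. With 1 library per sex and location the difference between locations was not tested. The other abundant genes had the same signs with larger medians (-0.097, -0.19 and 0.30), and TMM scaling turned all 3 signs in the steady genes.

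LOC115711364, on X in the Pink pepper assembly, had a log2 difference of 0.33 in Merick against -0.36 in Knox and -0.15 in Madison. The opposite signs were not tested either. With TMM the values were 0.13 in Merick, -0.21 in Knox and 0.082 in Madison, so differences of at least 0.3 in both directions were seen on plain CPM and not with TMM or RLE, nor with upper-quartile scaling (0.11, -0.47 and -0.22). A gene was listed here where plain CPM differences of at least 0.3 occurred in both directions, and no other gene named by rule met that. Steady genes outside that rule also did, such as LOC115708035, with -0.50 in Madison against 0.29 in Knox and 0.49 in Merick.

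Reads listed in the closing rows and assigned to no gene enter no comparison. They reached 18.1% of listed reads in the Knox male. Including them in the library size lowers every CPM, and 62 genes then met the rule, 61 of them among the 98.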

How the results depend on the processing

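The number of steady genes was within 1.5 times 98 under TMM, RLE and upper-quartile scaling. It was 62 with closing rows in the library size, 24 at a ratio limit of 1.3, 305 at a limit of 2, 277 with a minimum of 50 CPM and 16 with a minimum of 200 CPM. Over 5 libraries it was 112 to 194, with 194 without the Merick male and 161 without the Merick female. Leaving out a library loosens the rule, so the list can only grow. For the sex comparison the rule used these same values, so nothing is read from the counts of steady genes called. These stayed at 0 under each scaling, without the filter, with limma-voom and with location as a replicate block. DESeq2 called 1, and without 1 library edgeR called 0 to 2, the 2 without the Merick male. Over all genes edgeR called 3339 of 19276, against 3345 with RLE, 3088 with upper-quartile scaling and 3052 with library size only. It called 3149 of 24265 without the filter and 2123 of 19276 with location as a replicate block. DESeq2 called 6437 of 19065 and limma-voom 2434 of 19276. Without 1 library edgeR called 131 to 8311, of 19668 to 19946 tested genes. Leaving out a female gave 131 (Knox), 132 (Madison) and 242 (Merick). Leaving out a male gave 943 (Knox), 216 (Madison) and 8311 (Merick). Pairing by location was not assumed, since the labels state no pairing beyond the location. Same-location deviations from the sex means correlated at 0.14 for Knox and 0.19 for Merick but at 0.0075 for Madison. Between different locations the correlations ran from -0.24 (Merick female with Knox male) to 0.15 (Madison female with Knox male). The median log2 fold change of the steady genes, 0.09, was -0.10 with upper-quartile scaling, which moved the median of all genes to -0.18, and 0.033 with library size only. Without 1 library it was 0.044 to 0.105. The cause of these shifts was not tested. Of 21 named genes under 3 scalings and 6 leave-outs, 175 ratios kept their side of 1.5, 5 passed it and 9 came under it. Leaving out a library can only lower a ratio, so genes inside the limit had to stay inside in every leave-out. The 5 that passed came from scalings: LOC115705254 and LOC115709329 with TMM and RLE, and LOC115719200 with upper quartile. The lowest count behind a steady gene's value was 2879 reads. Chosen after seeing the data, the same scalings of the median male minus female difference within a location gave 0.105, 0.21 and -0.13 (TMM), 0.115, 0.25 and -0.16 (RLE) and -0.15, -0.089 and -0.14 (upper quartile) for Knox, Madison and Merick, so TMM and RLE turned all 3 signs.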

Other observations

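The share of genes with a small ratio over the 6 libraries differed between levels. Counting error is relatively larger at low CPM, and its part in these shares was not tested. Without the minimum of 100 CPM, a ratio of at most 1.5 was found for 40 of 5188 genes with a mean of 1 to 10 CPM (0.77%). It was found for 257 of 5180 genes at 10 to 30 CPM (4.96%), 388 of 5484 at 30 to 100 CPM (7.08%) and 113 of 1574 at 100 to 300 CPM (7.18%). Between 300 and 1000 CPM it was found for 10 of 387 genes (2.58%), and above 1000 CPM for 0 of 78. LOC115711364 had a mean of 999.98 CPM, so that last count turns on where the class begins. Most genes with a ratio of at most 1.5 lie below the minimum used for the list.

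Of the 6 genes of these tables with a common name in the Pink pepper table, CHS (LOC115724170), chalcone synthase of flavonoid synthesis, reached 100 CPM in every library. It stood at 638, 545 and 1836 CPM in females and 148, 225 and 639.5 CPM in males, a ratio of 12.4. None of the 6 is a steady gene.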
